A study of Mus musculus with 7 samples.

Results

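Of the 15347 HDAC1 peaks called in E11.5 mouse limb buds, 879 (5.73%) were shorter than 2000 bp and lay at a divergent coding promoter, where the transcription start sites (TSSs) of 2 protein-coding genes face away from each other. The peaks were selected on their deposited position and length. A peak was taken when it shared at least 1 bp with the interval between a minus-strand TSS and a plus-strand TSS at most 1000 bp further along the chromosome, widened by 500 bp on each side. By this definition the GENCODE M21 basic annotation held 999 divergent coding pairs, formed by 1966 of 21851 protein-coding genes, and 759 of the pairs (76.0%) had such a peak. This share depends on the limits set for the selection and is given as a description. The peaks come from ChIP-seq, which sequences the DNA brought down with a protein, with an antibody to HDAC1 in 4 samples and with 3 input samples as control. Each sample pooled forelimb and hindlimb buds of wild-type Swiss Webster embryos at E11.5 (40 to 44 somites) from 3 litters, with no mutant or treated group. The deposited list gave 1 set of coordinates for the 4 ChIP samples together, ordered by rank (1 is the best), and all of its starts and lengths were multiples of 50 bp. It held no read number, height or value for a single sample, so no value here has a replicate error and the depth behind a peak is unknown. The intervals given are 95% Wilson intervals for shares and order-statistic intervals for medians. They are taken over regions or genes, which are not biological replicates, and no significance test was run.

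HDAC1 removes acetyl groups from histones as a subunit of the SIN3, NuRD and CoREST complexes, and is known to sit at active CpG-rich promoters as well as at repressed genes. A divergent, or bidirectional, promoter is a single nucleosome-depleted region from which RNA polymerase II starts in both directions. In mammals many such pairs are housekeeping genes for DNA repair, translation and mitochondrial function, and their promoters are typically rich in CpG and poor in TATA boxes.

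Bases between the TSSs are shown for pairs that carry the results below. They are limited to stretches of at least 30 and at most 300 bases outside every exon of GENCODE M21 and RefSeq, read from GRCm38 in the direction of the plus-strand gene. The first 5 are the best-ranked pairs with such a stretch. Capitals mark letters that match any of 10 short motifs on either strand: CCGGAAG for ETS factors, TGCGCA for NRF1, CCAAT for NFY, GGGCGG for SP and KLF factors, AAGATGG for YY1, CACGTG for E-box factors, TGACGT for the cyclic AMP response element (CRE), ACTACAA for ZNF143, TATAAA for the TATA box and CCACCCA for GLI factors.
Rad17/Taf9 (mm10 chr13:100651446-100651578, plus strand): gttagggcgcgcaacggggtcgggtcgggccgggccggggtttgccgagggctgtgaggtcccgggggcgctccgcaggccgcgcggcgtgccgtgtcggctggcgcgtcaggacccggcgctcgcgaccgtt
Gtf3c4/Ddx31 (mm10 chr2:28840361-28840405, plus strand): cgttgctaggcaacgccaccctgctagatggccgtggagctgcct
Emc6/Tax1bp3 (mm10 chr11:73177043-73177082, plus strand): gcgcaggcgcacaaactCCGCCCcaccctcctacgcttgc
Mms19/Ubtd1 (mm10 chr19:41981314-41981613, plus strand): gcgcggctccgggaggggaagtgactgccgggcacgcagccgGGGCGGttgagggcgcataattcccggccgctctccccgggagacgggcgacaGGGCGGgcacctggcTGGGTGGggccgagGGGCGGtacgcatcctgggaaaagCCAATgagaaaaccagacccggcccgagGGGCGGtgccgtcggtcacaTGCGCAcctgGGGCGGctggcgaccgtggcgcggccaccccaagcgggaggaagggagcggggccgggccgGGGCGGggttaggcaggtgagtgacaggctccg
Lrsam1/Rpl12 (mm10 chr2:32961256-32961334, plus strand): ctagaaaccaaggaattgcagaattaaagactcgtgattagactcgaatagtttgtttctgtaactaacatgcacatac
The stretch between Mms19 and Ubtd1 held 9 matches, most of them GGGCGG, and was 74.3% G or C, while the Lrsam1/Rpl12 stretch held none and was 35.4% G or C. The next 2 pairs are the best-ranked ones with an ETS and a CRE match in the stretch, chosen after the motif counts were seen, and the last 3 are textbook bidirectional pairs. Mrps12/Sars2 is shown because it had no peak.
Uqcrh/Lrrc41 (mm10 chr4:116075072-116075268, plus strand): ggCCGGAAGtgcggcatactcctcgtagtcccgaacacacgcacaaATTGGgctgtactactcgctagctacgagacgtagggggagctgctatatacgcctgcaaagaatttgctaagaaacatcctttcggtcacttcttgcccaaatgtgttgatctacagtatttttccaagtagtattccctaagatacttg
Aimp2/Pms2 (mm10 chr5:143909848-143909900, plus strand): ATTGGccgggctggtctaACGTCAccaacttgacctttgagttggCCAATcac
Mcm4/Prkdc (mm10 chr16:15637401-15637443, plus strand): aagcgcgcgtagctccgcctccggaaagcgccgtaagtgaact
Atm/Npat (mm10 chr9:53536829-53536888, plus strand): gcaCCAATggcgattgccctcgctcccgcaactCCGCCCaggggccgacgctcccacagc
Mrps12/Sars2 (mm10 chr7:28741822-28741956, plus strand): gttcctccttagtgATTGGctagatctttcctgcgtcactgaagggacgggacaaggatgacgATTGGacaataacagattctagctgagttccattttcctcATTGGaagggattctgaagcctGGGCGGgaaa
Both pairs shown for a motif also held a CCAAT match. The Mrps12/Sars2 stretch held 3 CCAAT matches and 1 GGGCGG match and was 48.1% G or C.

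The peak of best rank lay at Gnptg/Tsr3, ranked 10 in the whole list. Gnptg encodes a subunit of the enzyme that tags lysosomal proteins with mannose 6-phosphate, and Tsr3 modifies 18S ribosomal RNA. Their TSSs are 46 bp apart, and the 850 bp peak (mm10 chr17:25239500-25240349) covered both. It reached 624 bp into Gnptg and 179 bp into Tsr3, and 43.6% of its bases were annotated exon. Next came Noa1/Polr2b at rank 69, where Polr2b encodes the second-largest subunit of RNA polymerase II, with a 1400 bp peak (mm10 chr5:77309250-77310649) over both TSSs. The peak of rank 74 (mm10 chr13:100650600-100651949) covered the TSSs of Rad17, a checkpoint clamp loader, and Taf9, a TFIID subunit, 556 bp apart. Rank 137 lay at Bag5/Apopt1 with a TSS spacing of 4 bp, rank 147 at Gtf3c4/Ddx31, rank 160 at Emc6/Tax1bp3 and rank 170 at Mms19/Ubtd1, where Mms19 serves iron-sulfur cluster assembly. Rank 196 lay at Lrsam1/Rpl12, rank 201 at Eef1akmt3/Mettl1, a pair of methyltransferase genes, and rank 209 at Srd5a1/Nsun2. Of these 10 peaks, 8 covered both TSSs. The exceptions covered only Rpl12, a ribosomal protein gene, starting 95 bp from the Lrsam1 TSS on the Rpl12 side, and only Nsun2, an RNA methyltransferase gene. The 5 last-ranked peaks were 150 to 400 bp long, and 0 of the 5 covered both TSSs. They lay at Pigf/Cript, Lmf2/Ncaph2, Dcaf6/Mpc2, Mfsd8/Abhd18 and Stk19/Dxo, with ranks from 15288 to 15340.

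Peaks at divergent promoters spread over the whole ranked list and were more frequent towards its top, as were other promoter peaks. They made up 7.64% of the peaks at ranks 1 to 3836 (293 peaks), 6.85% at ranks 3837 to 7673, 4.59% at ranks 7674 to 11510 and 3.83% at ranks 11511 to 15347 (147 peaks). These ranks held 33.3%, 29.9%, 20.0% and 16.7% of the members and 30.5%, 29.7%, 22.4% and 17.3% of the 8404 other peaks shorter than 2000 bp within 500 bp of a coding TSS. The median rank of the members was 5835 (interval 5449 to 6272), against 6262 (interval 6110 to 6401) for the latter. These other short promoter peaks serve as the comparison throughout. The 2 intervals overlap, and within 6 bins of peak length the difference in median rank took both signs, from -242 to 781. The median length was 650 bp (interval 600 to 650 bp) against 600 bp (interval 550 to 600 bp). Annotated exons made up a median of 52.4% of a member (interval 50.7 to 54.0%) and 39.7% of another short promoter peak (interval 38.7 to 40.7%), and 37 members held no exon base. Members have the first exons of both genes nearby by definition, so the exon difference follows in part from the selection. The length limit removed 20 peaks at divergent promoters. The longest members were 2 peaks of 1950 bp, at Gen1/Smc6 and Glyr1/Ubn1, and the shortest peak left out was 2000 bp long, at Hnrnph3/Pbld2. The 20 longer peaks had a median length of 2450 bp and a median rank of 419.5, and 18 of them covered both TSSs.

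At 625 pairs there was 1 member peak, at 125 pairs there were 2 and at 9 pairs 3, and 23 of the 879 peaks served more than 1 pair. Of all members, 413 (47.0%, interval 43.7 to 50.3%) covered both TSSs, 212 (24.1%) covered 1 TSS, 7 lay wholly between the TSSs, and 247 (28.1%) lay beside the interval. These positions were taken against the closest TSSs of a pair, so a peak that met the definition through another TSS of the same genes can lie further out. Peaks over both TSSs ranked higher and were longer. Their median rank was 3799 (interval 3331 to 4236) and median length 900 bp, against 6628 (interval 5719 to 7477) and 550 bp over 1 TSS, and 9222 (interval 8511 to 10067) and 350 bp beside the interval. Since the list ranks long peaks higher, the part of length in this order was not tested. Peaks over both TSSs reached a median of 374 bp past a TSS into the gene (interval 358 to 390 bp). For each peak the longer of the 2 reaches had a median of 496 bp and the shorter of 256 bp. The median signed distance of the peak centre from the midpoint was 14.5 bp towards the plus-strand gene (interval -20.5 to 35.0 bp), an interval that includes 0. The median absolute distance was 238 bp (interval 221 to 254 bp).

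The share of pairs with a member varied less with the TSS spacing than did the shape of the peaks. The spacing had a median of 133 bp and quartiles of 70.5 and 259.5 bp, and its median was 132 bp in pairs with a member and 128 bp in the 220 pairs without any peak. A member was present at 305 of 392 pairs with a spacing of 1 to 100 bp (77.8%, interval 73.4 to 81.6%), 75.1% of pairs at 101 to 200 bp, 80.7% at 201 to 300 bp and 81.3% at 301 to 400 bp. The share was 60.7% (34 of 56, interval 47.6 to 72.4%) at 401 to 600 bp and 67.1% (51 of 76, interval 55.9 to 76.6%) at 601 to 1000 bp. By contrast, the share of members that covered both TSSs was 68.9%, 48.0%, 31.6%, 24.0%, 19.0% and 4.69% over the same 6 classes of spacing. Wider spacing leaves less room for a peak under 2000 bp to span both TSSs, so this order is in part set by geometry. Pairs at 401 to 600 and 601 to 1000 bp, which less often had a member, also had a lower CpG ratio (observed/expected). In 500 bp on each side of the midpoint its median was 0.748 and 0.642, against 0.775 to 0.816 at narrower spacing. The interval searched is also longer at wider spacing, and the part of either was not tested. At the narrow end the TSSs of Arfrp1 and Zgpat are 1 bp apart and a peak of 1250 bp (rank 2148) covered both, while Bag4/Lsm1, also 1 bp apart, had peaks of ranks 11927 and 5477 on either side and none over the TSSs. Dcun1d3/Lyrm1, at the same spacing, had a peak over both TSSs (rank 6125) and another on the Dcun1d3 side (rank 4192). At the wide end Proser3/Hspb6, 996 bp apart, had a 200 bp peak between the TSSs (rank 15053). Btf3l4/Txndc12, 987 bp apart, had a 950 bp peak over the Btf3l4 TSS (rank 4289) and a 250 bp peak between the TSSs (rank 8532).

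**Figure D1:**
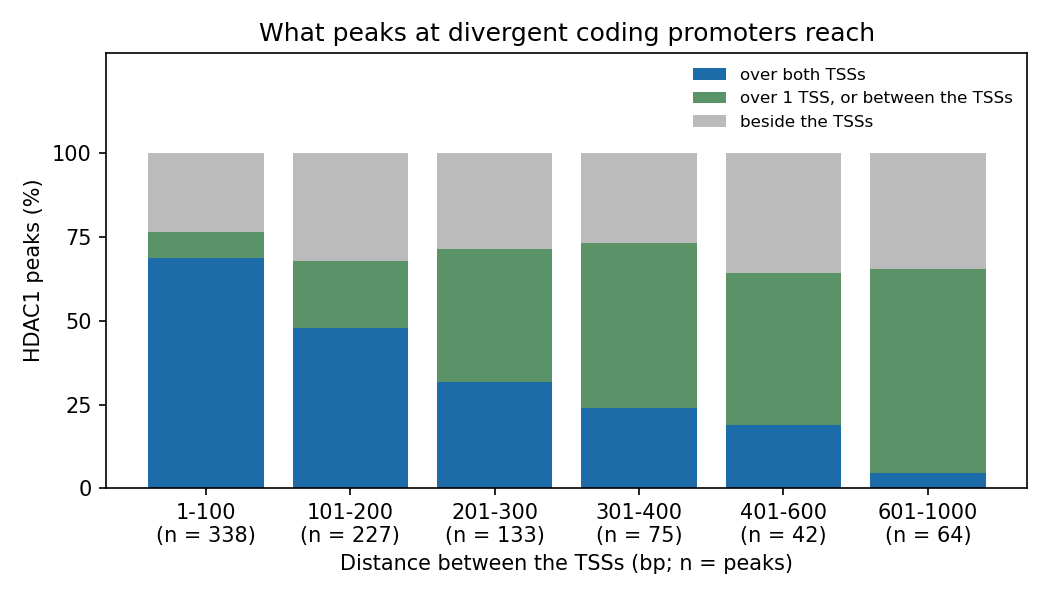
Share of member peaks (y axis, percent) by what they cover, in 6 classes of distance between the 2 TSSs (x axis, bp, with the number of peaks). The share over both TSSs goes from 68.9% at 1 to 100 bp to 4.69% at 601 to 1000 bp, and the share beside the TSSs stays between 23.4% and 35.7%.

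The share of pairs under a peak was then followed base by base in steps of 50 bp from the midpoint. Pairs 1 to 100 bp apart showed a single summit, with 64.0% of pairs covered at the midpoint, 58.9% at 200 bp into the side of the minus-strand gene and 61.2% at 200 bp into the other side. Pairs 101 to 200 bp apart were covered in 49.8% of cases at the midpoint and in 57.7% at 150 bp towards the plus-strand gene, and pairs 201 to 400 bp apart in 52.9% at the midpoint and 51.4% and 57.6% at 200 bp on the minus and plus side. In pairs 401 to 1000 bp apart the cover was 36.4% at the midpoint, 31.1% at 200 bp towards the minus-strand gene, and 38.6% and 41.7% at 450 bp on the minus and 400 bp on the plus side. These outer positions are the highest on their side, with 51 and 55 of 132 pairs against 48 at the midpoint. Peaks on both sides of the midpoint were also found at single pairs. Of the 134 pairs with 2 or more members, 44 had a peak on each side and none over the midpoint, 78 had a peak over it, and 12 had all peaks on one side. The 44 pairs had a median spacing of 184 bp. The gap between their peaks had a median of 225 bp and held both TSSs in 17 cases, 1 TSS in 17 and neither in 10. At Mcm7/Ap4m1, where Mcm7 encodes a subunit of the replicative helicase, a peak of rank 546 ended 69 bp inside Mcm7 and a peak of rank 7494 began 2 bp before the Ap4m1 TSS, 250 bp away. At Cdc40/Wasf1 the gap was also 250 bp and held the Cdc40 TSS, the second peak beginning 25 bp before the Wasf1 TSS, whereas at Aimp2/Pms2 and Hsp90b1/Ttc41 both TSSs lay under the peaks, with gaps of 100 and 200 bp.

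**Figure D2:**
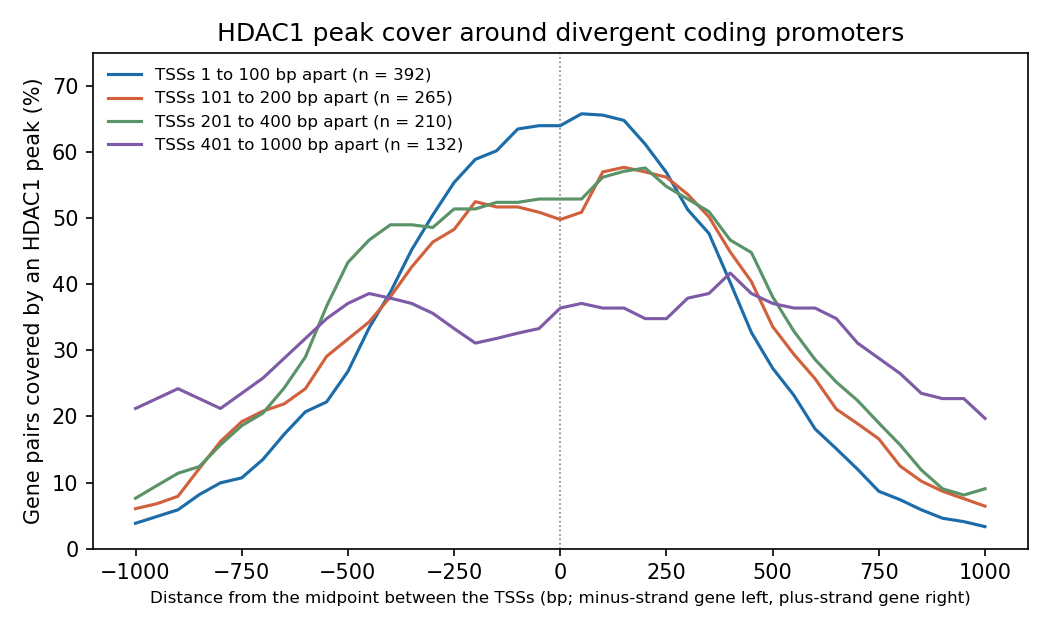
Share of divergent coding pairs covered by any HDAC1 peak (y axis, percent) against distance from the midpoint between the TSSs (x axis, bp, minus-strand gene to the left). Pairs 1 to 100 bp apart have a single summit with 64.0% at the midpoint, while pairs 401 to 1000 bp apart have 36.4% there, and their highest values on the left and right are 38.6% at 450 bp and 41.7% at 400 bp.

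Both genes of a pair were often covered, though not in most pairs. At the base 200 bp inside each gene, 339 of 999 pairs (33.9%) were covered on both sides, 364 (36.4%) on 1 side and 296 (29.6%) on neither, with 504 minus-strand and 538 plus-strand genes covered. Among pairs covered on at least 1 side, both genes were covered in 55.6% at a spacing of 1 to 100 bp, 48.4% at 101 to 200 bp, 41.2% at 201 to 400 bp and 32.4% at 401 to 1000 bp. The bases compared lie further apart at wider spacing, so this order is in part set by geometry. Around coding genes with no TSS of the other strand within 1000 bp upstream, peak cover was lopsided, with 28.1% of 18650 genes covered 200 bp inside the gene and 12.0% at 200 bp upstream. Around the TSSs of divergent genes it was 52.2% and 54.0% at the same positions. Each pair entered this count from both of its closest TSSs (n = 1998), and bases upstream of a gene often lie inside its partner. Level cover is therefore in part set by the counting, and the contrast with genes without a partner was not tested. Coding genes with a noncoding TSS upstream on the other strand had values of 50.3% and 27.5% (n = 1235). At 500 bp upstream the cover was 37.2% for divergent genes, where the partner gene lies, 13.6% with a noncoding partner and 4.33% with none. Genes outside divergent pairs each entered once, from a single TSS, which need not be the one nearest a peak or a noncoding partner. Divergent genes were placed by the closest TSSs of the pair, so the sets are not like for like.

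**Figure D3:**
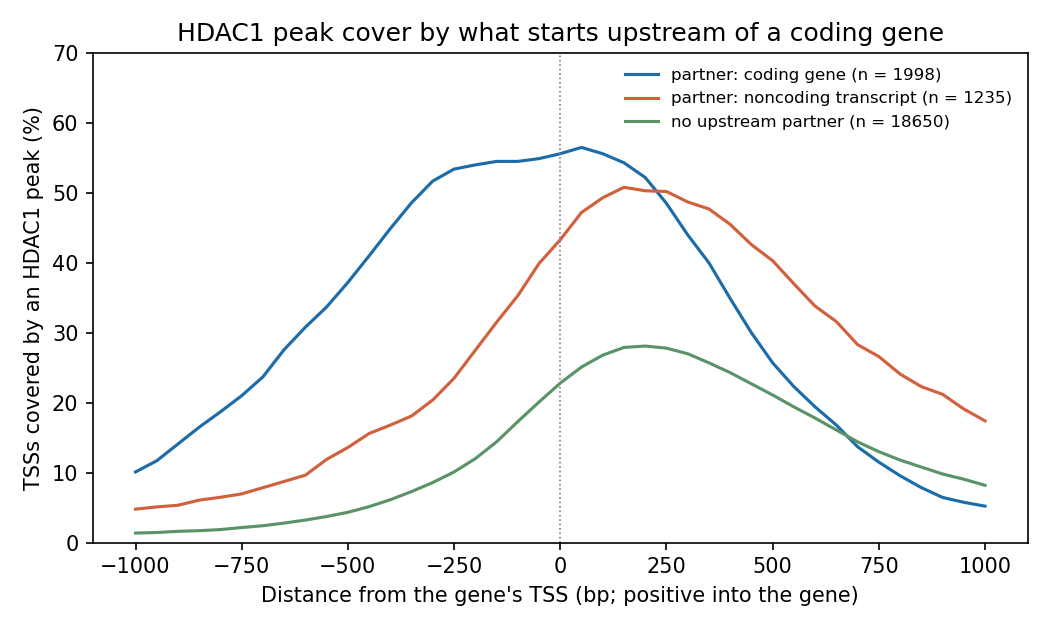
Share of TSSs covered by any HDAC1 peak (y axis, percent) against distance from the gene's own TSS (x axis, bp, positive into the gene), for genes with a divergent coding partner, with an upstream noncoding TSS on the other strand, and with neither. Cover is near level on the 2 sides of the TSS for divergent genes, 54.0% at 200 bp upstream and 52.2% at 200 bp inside, and lower upstream in the other sets, 27.5% and 12.0%. Each divergent pair is entered from both of its closest TSSs, so its level cover is in part set by the counting. Genes of the other sets are entered once, from a single TSS, so the sets are not like for like.

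With equal windows of 500 bp around each TSS, and all peaks whatever their length, 1518 of 1966 divergent genes (77.2%, interval 75.3 to 79.0%) had a peak, against 7806 of 19885 other coding genes (39.3%, interval 38.6 to 39.9%). Divergent promoters were richer in CpG. The number of CpG sites over that expected from the C and G content (observed/expected), in 500 bp on each side of the gene's 5 prime end, had a median of 0.765 for divergent and 0.500 for other genes. All coding promoters were therefore split into 4 equal classes by this ratio. A peak or a partner at any coding TSS of a gene counted, while the ratio was taken at its 5 prime end only. The split was not repeated with a single TSS per gene. In the class highest in CpG, 91.5% of 972 divergent genes and 87.4% of 4491 other genes had a peak. In the next it was 72.5% of 724 and 59.3% of 4738, then 41.9% of 210 and 16.1% of 5253, and in the class lowest in CpG 26.7% of 60 (interval 17.1 to 39.0%) and 4.16% of 5403 (interval 3.66 to 4.73%). The difference of 38.0 percentage points over all genes was thus smallest in the top class. A window at a divergent gene often also takes in the partner's TSS, and what that adds was not tested. The same peak can then count for both genes of a pair, so the intervals for divergent genes are likely too narrow. Other coding genes with an upstream noncoding TSS lay between these sets, with a peak at 66.2% of 1235 genes against 37.5% of the 18650 without one. Head-to-head pairs outside the rule, whose starts overlap, had a peak shorter than 2000 bp at 121 of 165 pairs (73.3%, interval 66.1 to 79.5%).

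**Figure D4:**
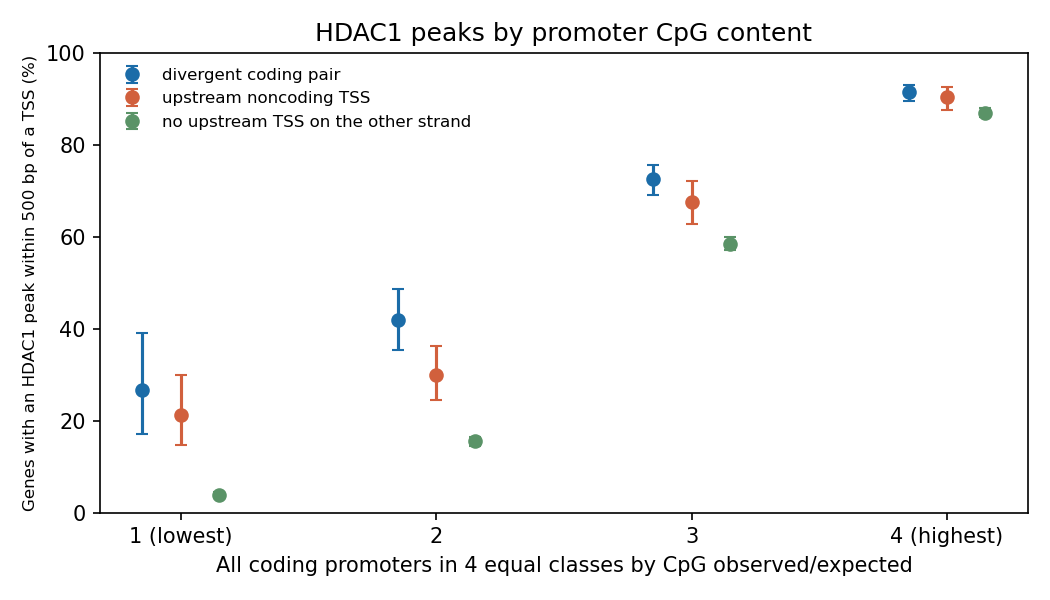
Share of coding genes with any HDAC1 peak within 500 bp of a TSS (y axis, percent) in 4 equal classes of all coding promoters by CpG observed/expected (x axis), with 95% Wilson intervals over genes as bars. Divergent genes go from 26.7% to 91.5%, and genes with no upstream TSS on the other strand from 3.81% to 87.0%.

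Among the divergent pairs themselves the presence of a member went with base composition. In 500 bp on each side of the midpoint, pairs with a member had a median CpG observed/expected of 0.801 (interval 0.787 to 0.811) and pairs without any peak 0.617 (interval 0.585 to 0.641), with 60.7% and 56.3% G or C. In 4 equal classes of the pairs by this ratio a member was present at 45.2%, 80.4%, 88.0% and 90.4% of pairs, from low to high. The member peaks were less rich in G and C than the other short promoter peaks, with a median of 63.0% (interval 62.5 to 63.5%) against 66.6% (interval 66.4 to 66.8%), and a CpG ratio of 0.817 against 0.833. Pairs in which a gene was named only by a gene model or clone had a member in 75 of 113 cases (66.4%, interval 57.3 to 74.4%), against 684 of 886 pairs with assigned symbols (77.2%, interval 74.3 to 79.8%).

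The 220 pairs without any peak included pairs with a tissue-restricted gene. Examples, chosen after the list was seen, are the collagen pair Col4a4/Col4a3, the sterol transporters Abcg5/Abcg8, the thyroid oxidase pair Duox2/Duoxa2, the slit diaphragm genes Kirrel2/Nphs1, the small heat shock pair Hspb2/Cryab and the testis histone pair Hist1h2ba/Hist1h2aa. Others hold housekeeping genes, such as Cdc26/Prpf4, Nfs1/Romo1 and Dhx38/Txnl4b. On the X chromosome 6 of 28 pairs had a member (21.4%, interval 10.2 to 39.5%), against 753 of 971 autosomal pairs (77.5%, interval 74.8 to 80.1%). The X pairs were lower in CpG, with a median ratio of 0.607 against 0.775. Among promoters in the second-highest CpG class, 8 of 25 divergent X genes (32.0%) and 517 of 699 autosomal ones (74.0%) had a peak. For other coding genes of that class it was 36.0% on the X and 60.3% on autosomes. In the highest class it was 2 of 8 divergent X genes against 92.0% on autosomes, and 55.6% against 88.0% for other genes. Whether the gap differs between divergent and other genes was not tested. The 7 members on the X ranked from 5855 to 13653, and lay among others at Ube2a, a ubiquitin-conjugating enzyme gene, and Smc1a, a cohesin gene. The sex of the pooled embryos is not given in the sources used here.

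The letters of the 10 motifs were counted in 300 bp around each peak centre. The ETS letters CCGGAAG were present in 21.3% of member windows (187 of 879, interval 18.7 to 24.1%), 11.6% of other short promoter peaks (interval 10.9 to 12.3%) and 11.4% of 300 bp windows at all 21851 coding 5 prime ends. The CRE letters TGACGT were in 10.9% of members (interval 9.03 to 13.2%), 5.30% of other peaks and 8.21% of all promoters. For CCAAT the shares were 23.5%, 16.7% and 36.6%, for AAGATGG 8.08%, 5.81% and 6.80%, and for ACTACAA 3.19%, 1.38% and 3.25%. Windows of all promoters are set at the 5 prime end and not at a peak centre, so their shares are not like for like. GGGCGG was less frequent in members, with 58.4% (interval 55.1 to 61.6%) against 65.0% (interval 63.9 to 66.0%) and 45.5% of all promoters. The intervals of members and other peaks overlapped for TGCGCA (11.7% and 10.9%), CACGTG (7.51% and 7.53%), CCACCCA, the GLI letters (6.60% and 7.50%), and TATAAA. The last was rare in both, with 3.07% and 1.93%, against 10.7% of all promoters. Members are less GC-rich, so the windows were also split into 3 equal classes by G and C content. The ETS difference kept its sign in all 3 classes, from 6.42 to 10.5 percentage points, and the CRE difference from 3.01 to 6.50, and the CCAAT difference of 6.88 points was 3.61 to 3.93 within the classes, whereas GGGCGG was 3.11 points more frequent in members in the lowest class. Peak centres also lay differently, with a median signed distance from the nearest coding TSS, positive into the gene, of 77.5 bp in members against 149.5 bp. Members have the TSSs of both genes nearby by definition, so this difference follows in part from the selection. In 300 bp windows set at the 5 prime end of genes with a peak, an alternative added after seeing the data, ETS letters were found at 26.7% of 1518 divergent and 16.1% of 7806 other genes, and CRE letters at 15.0% and 10.8%. With windows so placed, CCAAT was found at 37.1% and 33.3% and TATAAA at 4.08% and 5.05%. The windows of partner genes often overlap, so the same match can count for both genes. Such a window also often holds both TSSs of a pair, and what that adds was not tested. Between pairs with a member and pairs without a peak, in 300 bp around the midpoint, ETS letters were in 31.4% of 759 and 20.0% of 220, and CCAAT in 40.6% and 49.5%. These sets of pairs also differ in CpG ratio and in G and C content, and the split by G and C was not made for them. A match here is a string of letters and not a measured binding site.

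**Figure D5:**
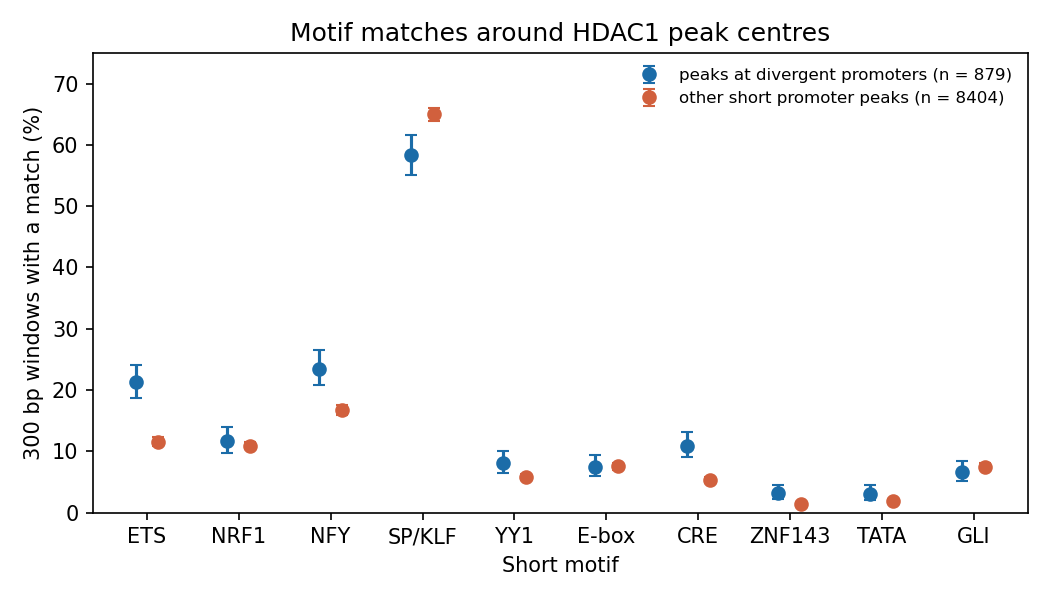
Share of 300 bp windows around peak centres with at least 1 match on either strand (y axis, percent) for 10 short motifs (x axis), in member peaks and in other short promoter peaks, with 95% Wilson intervals over peaks as bars. ETS, CCAAT (NFY) and CRE matches are more frequent in members, 21.3%, 23.5% and 10.9% against 11.6%, 16.7% and 5.30%, and GGGCGG (SP/KLF) is less frequent.

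Of all coding genes 9.0% were divergent, and gene lists for basic functions of the cell had higher shares, from 14.5% for translation initiation factors to 40.3% for clustered histone genes, while those for zinc finger proteins (5.84%) and solute carriers (6.73%) were lower. The lists were drawn by gene symbol, such as symbols starting with Eif, so a gene can be on a list by its name without having the function. Among the divergent genes of each list the share with a member is set beside 76.0% of all pairs. For DNA replication and repair 31 of 102 genes were divergent, and 25 of the 31 were in a pair with a member, led by Rad17 (rank 74), Mcm7 (rank 546) and others down to rank 15244. For the mitochondrial ribosome 23 of 75 genes were divergent and 17 had a member, the best-ranked at Mrpl40/Hira (rank 1628), Mrpl43/Twnk (rank 2583) and Zfp661/Mrps5 (rank 2680). For the respiratory chain and ATP synthase it was 22 of 30 divergent genes, led by Uqcrh/Lrrc41 (rank 562), which holds a complex III subunit, and Emc8/Cox4i1 (rank 1264). All 10 divergent genes of RNA polymerase subunits and all 8 of translation initiation factors had a member, with Noa1/Polr2b (rank 69), Ptcd3/Polr1a (rank 1520) and Banf1/Eif1ad (rank 769) among them. The counts were 12 of 13 for cytoplasmic ribosomal proteins, 12 of 14 for splicing factors, with Srsf7/Ttc39d at rank 398, 8 of 9 for aminoacyl-tRNA synthetases, with S100pbp/Yars at rank 578, and 16 of 20 for chaperones. Of 10 divergent proteasome genes 5 had one (interval 23.7 to 76.3%), led by Sirt3/Psmd13 (rank 373). Psma7 among proteasome and Srsf2 among splicing factor genes count as without a member because their peaks, of ranks 145 and 75, were 2050 and 2600 bp long. Solute carriers and zinc finger proteins each had 18 of 23. Keratins and olfactory receptors had no divergent gene. Non-divergent genes of several lists also often had a peak within 500 bp of a TSS. The share was 86.1% for cytoplasmic ribosomal proteins, 85.3% for splicing factors, 83.3% for RNA polymerase subunits and 80.9% for translation initiation factors. It was 53.5% for DNA replication and repair, 42.0% for zinc finger proteins and 35.4% for solute carriers, against 39.3% of all non-divergent coding genes.

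Replication-dependent histone genes often form head-to-head H2A/H2B pairs that share a promoter and are expressed in S phase. Of 13 pairs of 2 clustered histone genes, 176 to 660 bp apart, 12 had a member and 7 of these had 2 members. In all pairs with a member, 17.7% had 2 or more. Histone pairs ranked from 3273, at Hist2h2ac/Hist2h2be, to 14172, at Hist1h2bf/Hist1h2ad. These genes are near-identical copies, so reads from them can be placed at the wrong copy and the values are uncertain. Of 85 Hedgehog pathway and limb patterning genes 1 was divergent, Shox2, a limb homeobox gene, and its peak (5450 bp, rank 344) was above the length limit. The other 84 genes on that list had a peak within 500 bp of a TSS in 67 cases (79.8%), against 39.3% of all coding genes that are not divergent. Of 26 genes for class I deacetylases and their complexes 2 were divergent, Rbbp4 (rank 3861, 1900 bp), a histone-binding subunit of HDAC1 complexes, and Hdac3 (best rank 9176, 2 peaks), the deacetylase of the NCoR/SMRT complex, and both had a member. All 24 other genes on that list also had a peak within 500 bp of a TSS.

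Of 14 pairs listed beforehand as textbook examples of bidirectional promoters, not all of which are bidirectional in this annotation, 6 met the definition and 4 of these had a member. The mitochondrial chaperonin pair Hspd1/Hspe1, 108 bp apart, lay under a 1650 bp peak of rank 286 (mm10 chr1:55087100-55088749) that reached 924 bp into Hspd1 and 617 bp into Hspe1. At Mcm4/Prkdc, a helicase subunit and a DNA repair kinase 489 bp apart, a 900 bp peak of rank 2285 (mm10 chr16:15637200-15638099) was centred 5 bp from the midpoint and reached 200 and 210 bp into the genes. At Atm/Npat, a DNA damage kinase and a histone gene activator 307 bp apart, a 600 bp peak of rank 4278 (mm10 chr9:53536200-53536799) reached 540 bp into Atm and ended 248 bp before the Npat TSS. At Sirt3/Psmd13, a mitochondrial deacetylase and a proteasome subunit 99 bp apart, an 800 bp peak of rank 373 (mm10 chr7:140882000-140882799) began 32 bp inside Psmd13. These 4 peaks thus ranged from an even span of both TSSs to cover of a single gene. No peak lay near Psmb9/Tap1, the antigen-processing pair 38 bp apart, or near Mrps12/Sars2, 182 bp apart. The nearest peak was 64765 bp away from the first and 66898 bp away from the second. Their CpG ratios of 0.622 and 0.637 were near the median of pairs without a peak. Of the others, 4 pairs had overlapping starts, 2 were too far apart, and 2 lay on the same strand or on different chromosomes in this annotation.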

How the data were processed

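HDAC1 ChIP-seq was analysed from 4 ChIP and 3 input samples of pooled E11.5 limb buds. The authors aligned reads with Bowtie2 2.2.5 to mm10 and used CisGenome for peak calling, with a false discovery rate under 0.05. They deposited 1 list of chromosome, start and end, in rank order, for the 4 ChIP samples together. No per-sample value or count was used, so no replicate comparison was made.

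Starts and ends were read as 1-based and inclusive. TSSs were those of protein-coding basic transcripts of protein-coding genes (GENCODE M21, GRCm38, the same build as mm10), and bases came from the RefSeq GRCm38 FASTA. A pair was placed by its closest TSSs, and a peak at several pairs by the nearest midpoint. The members, gene lists and motifs were chosen with earlier results of these data known. Named genes were the 10 best-ranked and 5 last-ranked members, the 3 shortest and 3 longest spacings, the members next to the length limit, textbook pairs, and up to 3 best-ranked members of each list. The pair and member searches were tested on simulated intervals and matched a base-by-base search. Alternatives changed the TSS, spacing, widening, overlap, length limit, list threshold, window and base composition. Python 3.11.15, numpy 2.4.6, scipy 1.17.1, pysam 0.24.0, samtools 1.23.1 and matplotlib 3.10.9 were used.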

Additional observations from a re-analysis of the deposited data

How the results depend on the processing

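No paired analysis was possible because the list pools the ChIP samples and holds no value per replicate, and for the same reason no replicate could be left out. The excess of divergent over other genes with a peak and the lower G and C content of the members kept their direction under every alternative run for them. With the 5 prime end of the gene record alone, the share of other genes with a peak was 37.0%. With TSSs 500 bp or less apart, 51.8% of members covered both TSSs and the median centre distance was 218 bp. Without widening, 67.3% of pairs had a member, with a median rank of 4855, a span of both TSSs in 59.7%, a centre distance of 183 bp and a CpG ratio of 0.826. These shifts follow in part from leaving out the peaks beside the interval.

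With the first 7674 peaks of the ranked list, 556 members remained in 54.6% of pairs, at a median rank of 3698, with 61.5% over both TSSs, a centre distance of 211 bp, 63.5% G or C and a CpG ratio of 0.835, and 56.1% of divergent and 26.5% of other genes had a peak. For a peak over the TSS itself these shares were 60.5% and 30.1%, and within 1000 bp the share of other genes was 40.1%. In the 4 classes by CpG, from low to high, they were 26.7% and 4.16%, 41.9% and 16.1%, 72.5% and 59.3%, and 91.5% and 87.4%. Without chromosome X, added after seeing the data, 40.3% of other genes had a peak. The median rank difference of members from other short promoter peaks, -428, turned to 329, 781 and 172 for peaks of 100 to 250, 650 to 800 and 1250 to 1950 bp.

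Of the motif differences between members and other peaks, that for CACGTG turned to 0.133 points in the first 7674 peaks, 1.57 over whole peaks, 2.38 in the highest of 3 classes of G and C content and 0.550 in windows at the TSS. TATAAA turned to -0.568 in the highest class and -0.963 at the TSS, CCACCCA to 1.50 in the middle class and 0.952 at the TSS, TGCGCA to -0.338 in the middle class and GGGCGG to 3.11 in the lowest. ETS, CCAAT, CRE, YY1 and ZNF143 letters kept their sign in all of these, though CCAAT went from 6.88 points to between 3.61 and 3.93 in the 3 classes and 3.78 at the TSS, and YY1 from 2.27 to 0.276 in the middle class.

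The depth per peak is unknown. Binding below the threshold of the list was not measured here.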
